A study of Homo sapiens with 12 samples.

Results

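The regions described here are 1 kb stretches of chromosomes 1 to 22 that are both dense in measured CpGs, with 46 or more, and heavily methylated, with a mean 5-methylcytosine (5mC) level of 80% or more over all CpGs and all 6 samples. A total of 1664 regions met both limits. They make up 13.21% of the 12601 CpG-dense regions and hold 101671 of 3402807 autosomal CpGs in the 5mC table. The remaining 10937 dense regions read under 80%. Because measured 5mC levels chose them, their high 5mC is a description and supports nothing further.

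The cells were SV-HUC-1, a human urothelial line immortalised with SV40, so all samples share a single cell line that carries a viral oncogene. The exposed samples had received DCBQ, 2,6-dichloro-1,4-benzoquinone, a byproduct of drinking-water disinfection, and the controls a blank solution, each with harvest after 3 days. Each deposited table, of 5mC and of 5-hydroxymethylcytosine (5hmC), has 3 DCBQ and 3 control columns, derived from reduced representation bisulfite sequencing (RRBS) with and without oxidation (12 libraries). The labels do not say that samples of a condition came from separate cultures, so the error behind each p may be technical only. Depth per CpG is unknown, and positions are on hg38.

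Most CpG-dense DNA in the human genome lies at gene starts as CpG islands, which are usually kept free of methylation. Dense stretches that are methylated in somatic cells are known from gene bodies, from promoters of germline genes that are silenced outside the germline, and from repeats. 5hmC is made from 5mC by TET enzymes, which need iron and 2-oxoglutarate, and cultured cell lines usually carry little of it.

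The promoters below are printed because their transcription start lies inside a heavily methylated dense region, the place where such density is normally unmethylated. DPPA5 encodes a protein of pluripotent and germ cells, and TDRD9 and MOV10L1 encode helicases of the piRNA pathway, which silences transposons in the male germline. ABHD16B, a predicted hydrolase gene, had the most methylated region with a start, and PEAR1, a platelet receptor gene, lay in a region that read higher after DCBQ. These last 2 were chosen after their values were seen. The sequences run 5′ to 3′ along the gene's strand, from RefSeq (GRCh38.p14), and capitals mark every CG.
DPPA5 (chr6:73354227-73354526, minus strand): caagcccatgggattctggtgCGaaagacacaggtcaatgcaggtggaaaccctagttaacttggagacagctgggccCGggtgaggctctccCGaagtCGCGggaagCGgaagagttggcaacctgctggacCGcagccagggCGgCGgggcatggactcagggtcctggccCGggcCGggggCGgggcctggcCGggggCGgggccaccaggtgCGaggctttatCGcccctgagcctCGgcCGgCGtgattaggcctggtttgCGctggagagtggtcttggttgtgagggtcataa
TDRD9 (chr14:103928206-103928505, plus strand): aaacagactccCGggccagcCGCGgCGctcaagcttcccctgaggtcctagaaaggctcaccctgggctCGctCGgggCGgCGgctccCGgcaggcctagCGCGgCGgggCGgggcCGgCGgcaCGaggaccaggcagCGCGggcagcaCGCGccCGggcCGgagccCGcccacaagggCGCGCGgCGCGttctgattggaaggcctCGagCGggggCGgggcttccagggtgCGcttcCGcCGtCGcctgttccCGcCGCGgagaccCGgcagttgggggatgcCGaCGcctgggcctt
MOV10L1 (chr22:50089756-50090055, plus strand): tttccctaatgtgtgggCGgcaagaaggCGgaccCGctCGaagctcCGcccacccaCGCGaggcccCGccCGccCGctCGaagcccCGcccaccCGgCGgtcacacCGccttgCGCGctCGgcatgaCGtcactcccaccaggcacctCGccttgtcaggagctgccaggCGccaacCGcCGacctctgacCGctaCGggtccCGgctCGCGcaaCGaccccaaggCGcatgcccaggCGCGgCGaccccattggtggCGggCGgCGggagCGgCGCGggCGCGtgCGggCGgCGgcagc
PEAR1 (chr1:156893468-156893767, plus strand): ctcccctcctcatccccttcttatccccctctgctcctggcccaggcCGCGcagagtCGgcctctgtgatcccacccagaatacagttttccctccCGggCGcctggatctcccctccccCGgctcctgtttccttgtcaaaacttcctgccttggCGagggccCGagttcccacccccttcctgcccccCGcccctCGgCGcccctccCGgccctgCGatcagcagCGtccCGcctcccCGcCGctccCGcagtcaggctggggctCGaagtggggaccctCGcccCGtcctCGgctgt
ABHD16B (chr20:63861248-63861547, plus strand): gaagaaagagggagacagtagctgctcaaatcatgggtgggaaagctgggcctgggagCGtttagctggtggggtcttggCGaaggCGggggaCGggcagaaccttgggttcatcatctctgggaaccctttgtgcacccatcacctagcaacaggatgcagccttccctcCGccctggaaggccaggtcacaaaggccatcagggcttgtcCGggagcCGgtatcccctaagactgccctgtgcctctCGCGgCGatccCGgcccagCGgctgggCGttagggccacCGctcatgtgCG

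Each 300-base window spans the start with 250 bases before it. Counted window by window, 1760 CpGs were measured in 80 such windows, and all 1760 sat at a CG of the RefSeq sequence. Some windows overlap, so a CpG can count more than once, and some held no measured CpG. The search was for CG on either strand, which is the same site. At least 1 CG was present in 98.03% of 21155 protein-coding promoters and 20 or more in 53.42%. Of the 80 windows with a start in a heavily methylated dense region, 64 held 20 or more. Their median was 27.5 CG, against 21 over all promoters. The rule asked for CpG-dense regions, so this higher count follows from the choice and supports nothing further.

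Most measured CpGs of the germline promoters read 80% or more, with a few low ones among them. In the TDRD9 window 28 of 35 did, and the lowest read 39.7%, 43 bases upstream of the start. In the MOV10L1 window 22 of 32 did, and its lowest CpG, 156 bases upstream, read 21.3% in DCBQ samples and 25.77% in controls. The next low one lay 123 bases upstream, at 45.92% over all samples. Both lie before the heavily methylated region of MOV10L1, which begins at position 50090001 and holds only the last part of the window. In the DPPA5 window 12 of 18 CpGs read 80% or more, whereas the CpGs 49, 55 and 77 bases upstream of the start read 5.967%, 10.12% and 7.05% over all samples. The high mean of a region therefore covered single sites that were almost unmethylated. The PEAR1 window had 16 of 17 CpGs at 80% or more and 1 at 34.57%, 41 bases upstream.

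The promoter means of these genes lay close together in both conditions. The TDRD9 window averaged 86.59% ± 0.68 in DCBQ samples and 86.73% ± 0.82 in controls (SD, n = 3 each). The MOV10L1 window averaged 83.88% ± 0.92 in DCBQ samples and 84.07% ± 0.55 in controls, and the DPPA5 window 76.56% ± 1.73 in DCBQ samples and 77.39% ± 1.25 in controls. These differences were within the spread of the samples. Over the 1 kb region that holds the MOV10L1 start the values were 83.79% ± 0.48 in DCBQ samples and 84.76% ± 0.70 in controls. There the groups did not overlap, but most of the MOV10L1 window lies outside that region. Over the DPPA5 region, which holds its whole window, the values were 83.40% ± 0.78 in DCBQ samples and 84.26% ± 0.63 in controls, with overlap.

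Starts were rare in the heavily methylated dense regions. Starts were at hand for 15100 of 19122 protein-coding genes and for none on chromosome 8, so the counts of starts are lower bounds. The 68 regions on chromosome 8 were not used here. Of the remaining 1596 regions, 75 (4.7%) held a known start of a protein-coding gene, against 4864 (46.4%) of the other dense regions. Among the other dense regions, those with 20% to under 80% 5mC held a start in 371 cases (14.6%). The 75 regions hold starts of 79 genes, and their 5mC ran from 80.3% to 95.61% with a median of 88.16%. Besides the germline genes printed above they included TERB1 and HSF5, which act in meiosis, and ZPBP2, which acts in sperm binding to the egg. HES5, a Notch target, DRD4, a dopamine receptor, OXT, the oxytocin precursor, and COMP, a cartilage matrix protein, also had their start in such a region. These names were picked from the 75 after their values were seen.

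Instead, the regions lay inside genes and towards their ends. A protein-coding gene overlapped 1221 (73.4%) of them, while 201 met only noncoding genes or pseudogenes and 242 no gene. It overlapped 9108 (83.3%) of the other dense regions, but only 1590 (60.2%) of those with 20% to under 80% 5mC. Among the 885 regions lying in a single gene of known strand, the median position was 61.7% of the way from start to end, with quartiles at 30.7% and 84.2%. The median of 6478 other dense regions was 1.12%, and that of the 1112 among them with 20% to under 80% 5mC was 18.7%. The last 10% of the gene held 158 (17.9%) of the heavily methylated dense regions and 140 (2.16%) of the others, and the first 10% held 92 (10.4%) of the heavily methylated ones and 4743 (73.2%) of the others. Exons, introns and untranslated regions were not analysed here.

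**Figure D1:**
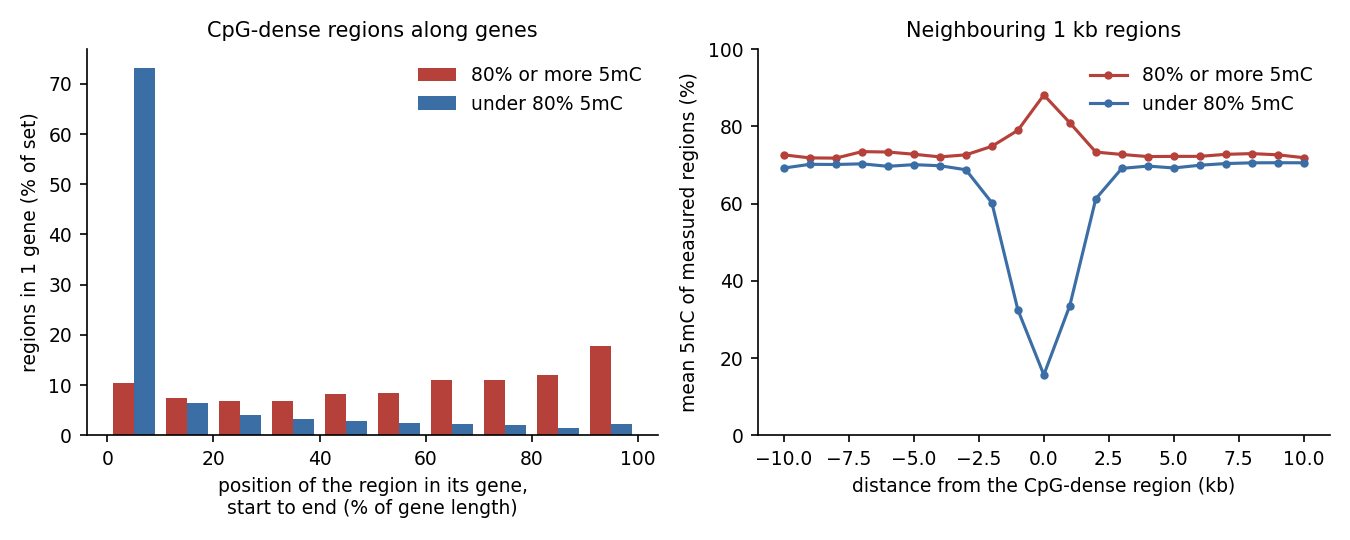
Left, share of CpG-dense regions (y axis, % of the regions in a single gene of known strand) by position from gene start to end (x axis, % of gene length); right, mean 5mC (y axis, %) of measured 1 kb regions by distance (x axis, kb) from CpG-dense regions of 80% or more 5mC (red) and under 80% (blue). The red bars are spread along the gene with 17.9% in the last 10% of the gene, whereas 73.2% of the blue ones fall in the first 10%; the flanks of both sets meet near 70% within 10 kb.

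Their surroundings were methylated too. The measured 1 kb regions directly before and after them averaged 79.0% and 80.95% 5mC, against 32.53% and 33.62% beside the other dense regions. At 10 kb the flanks of the heavily methylated dense regions read 72.64% and 71.91%, and those of the other dense regions 69.23% and 70.59%. Only 77 (4.63%) of the 1664 had a direct neighbour under 20%, and 3 of the 940 with both neighbours measured had both under 20%. A neighbour of the same kind was found for 339 (20.4%), which formed 149 runs of 2 or more, and 1325 stood alone. For 1552 at least 1 direct neighbour was measured, so few of them bordered on unmethylated DNA that was measured.

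They were not spread evenly over the genome. Within 5 Mb of the first or last measured CpG of a chromosome lay 665 (40%), against 2461 (22.5%) of the other dense regions. Among the latter, the share was 28.8% for those with 20% to under 80% 5mC. Chromosome 19 held 221 (13.3%), which is 25.8% of its dense regions, and chromosome 12 had the lowest share, 35 regions or 7.25% of its dense regions. The densest window of 1 Mb, from 1 to 2 Mb on chromosome 1, held 38 among 84 dense regions.

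Within a region, methylation was uneven from CpG to CpG. Of the 101671 CpGs, 68.81% read 90% or more, 81.04% read 80% or more, and 4.128% read under 50%. A CpG under 20% was found in 451 regions (27.1%), 671 CpGs in all. Only 2 regions had every CpG at 80% or more, and the median SD among the CpGs of a region was 14.74 points. The median SD between samples of a condition was 0.678 points for the mean 5mC of a region.

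The limits cut through a continuous range. Just inside the 80% limit were regions at SHOX2 (80.01%), CLIC4 (80.03%) and LOC124901165 (80.04%), and just outside were regions at DNAJC13 (79.98%) and NNT-AS1 (79.99%) and a region in no gene (79.98%). Of regions with 80% or more 5mC, 94 had exactly 46 CpGs and averaged 87.91%, and 100 had 45 and averaged 88.3%. Over the 1664 regions the mean 5mC had quartiles at 83.68% and 92.55% and a maximum of 97.81%, and the number of CpGs ran from 46 to 163 with a median of 57.

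A total of 1023 protein-coding genes overlapped a heavily methylated dense region, of 8139 that overlap any dense region. In 830 of them it was a single region, and 61 genes held 3 or more. EPPK1, which encodes epiplakin, a linker of intermediate filaments in epithelia, held the longest run, 9 adjacent regions with 865 CpGs on chromosome 8 from 143858001 to 143867000. All 9 of its dense regions belonged to the set. PCGF3, a subunit of a Polycomb complex, and HELZ2, a helicase, had 6 of 6, and AGRN, the proteoglycan agrin of the neuromuscular junction, 6 of 7. RASA3 and ARHGAP39, both GTPase-activating proteins, and PLXNB2, a semaphorin receptor, had 5 of 6 each, EXD3 5 of 7, WDR97 5 of 5 and CACNA1H, a T-type calcium channel, 5 of 9. A second long run covered MIB2, a ubiquitin ligase, and MMP23B, a metalloprotease, on chromosome 1 from 1629001 to 1635000 with 6 regions and 353 CpGs.

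The 8 regions with the most CpGs lay between 86.76% and 96.84% 5mC. A region in CBARP, an inhibitor of voltage-gated calcium channels (chromosome 19, 1229001 to 1230000), had 163 CpGs, with 5mC of 96.82% ± 0.06 in DCBQ samples and 96.86% ± 0.13 in controls (SD, n = 3 each). A region in ZNF316, a zinc finger gene, followed with 150 CpGs and 96.54% 5mC over all samples. MAPK8IP2, a scaffold of JNK signalling, had 134 CpGs and 94.12%, HIC1, a transcriptional repressor known for its methylation in tumours, 128 and 95.29%, and AJM1, a protein of apical junctions, 127 and 89.89%. SHANK3, a postsynaptic scaffold, had 125 and 92.97%. Regions of 133 and 129 CpGs lay in RGPD4, which has near-identical copies elsewhere in the genome, so their values of 88.28% and 86.76% are uncertain. Across the 1664 regions 5mC and the number of CpGs had a Spearman rho of 0.187, over regions that share the same libraries.

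At the upper end of 5mC, regions of CHRNA10, a nicotinic receptor subunit, ZNF865, a zinc finger gene, and IRGQ, of the immunity-related GTPase family, read 97.81%, 97.54% and 97.52%. NEURL3, a ubiquitin ligase, ABHD16B, NLGN2, a synaptic adhesion protein, and RUVBL1, an ATPase of chromatin remodelling complexes, followed between 97.1% and 96.88%. In the IRGQ region every CpG read at least 92.62%.

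By function, no list of genes stood for most of the set. Zinc finger genes gave 33 of the 208 with a dense region (15.9%), against 1023 of 8139 (12.6%) over all protein-coding genes. Homeobox genes outside the HOX clusters gave 21 of 89 (23.6%), HOX genes 2 of 23, calcium and potassium channels 11 of 67, kinesins 6 of 22, collagens 4 of 18 and cadherins outside the clusters 2 of 19. Mucins gave 2 of 4, ADAMTS and ADAMTS-like genes 1 of 13 (the ADAMTS-like gene ADAMTSL2) and ribosomal proteins 1 of 19. Germline genes gave 5 of 10, of which 3 by a known start. The clustered protocadherins gave 27 of 47 genes, but these overlap each other and meet only 4 regions.

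Among other lists, genes often hypermethylated in urothelial tumours gave 9 of 49, with SIM2, NKX6-2 and GATA2 in front. None of these regions held a known start of the gene. Imprinted genes gave 3 of 21 (INPP5F, WT1 and FAM50B) and housekeeping genes 1 of 13, SDHA. Genes listed for a link to 5mC gave 2 of 15, KDM2B and DNMT3A. Of the listed urothelial and epithelial markers, 5 had a dense region and 0 had a heavily methylated one. Of the 2 leukocyte or endothelial and 4 fibroblast markers with a dense region, 0 had a heavily methylated one. Whether these cells express the listed markers was not measured here.

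After DCBQ the heavily methylated dense regions read slightly less 5mC. The mean over their CpGs was 88.24%, 88.37% and 88.23% in the DCBQ samples and 88.67%, 88.51% and 88.50% in the controls. Every DCBQ sample was below every control. The means were 88.28% ± 0.08 for DCBQ and 88.56% ± 0.10 for controls (SD, n = 3 each), a difference of -0.278 points (SE 0.073), with a two-sided exact permutation p of 0.1, the smallest that 3 samples against 3 allow. This exact test cannot pass 0.05 with 3 samples against 3. With the median of the CpGs of a sample in place of the mean the difference was -0.153 points.

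Other sets of regions place that difference. In 87251 sparser regions of 80% or more 5mC, with 5 to 45 CpGs, the means were 87.49% ± 0.11 for DCBQ and 87.93% ± 0.15 for controls, a difference of -0.437 points (SE 0.108). The difference was thus nearer to 0 in the dense than in the sparser regions, by 0.160 points (SE 0.056), with an exact permutation p of 0.1 and 0.267 after adjustment over 8 such comparisons. Against the other dense regions, at 14.47% ± 0.09 for DCBQ and 14.57% ± 0.09 for controls, whose groups overlapped, the heavily methylated ones had a lower difference by 0.174 points (SE 0.048), with the same exact p. None of these differences passed the test. The second rested on how the CpGs were averaged, since with the median of the CpGs it was -0.0448 points (exact permutation p of 0.7). Dense regions of intermediate 5mC, from 20% to under 80%, read 52.67% in DCBQ samples and 52.88% in controls, a difference of -0.213 points, and the heavily methylated ones differed from that by -0.0649 points (SE 0.084, exact permutation p of 0.7). Weighting the sparser regions to the same 5mC levels, an alternative added after seeing the data, left the first difference at 0.169 points.

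**Figure D2:**
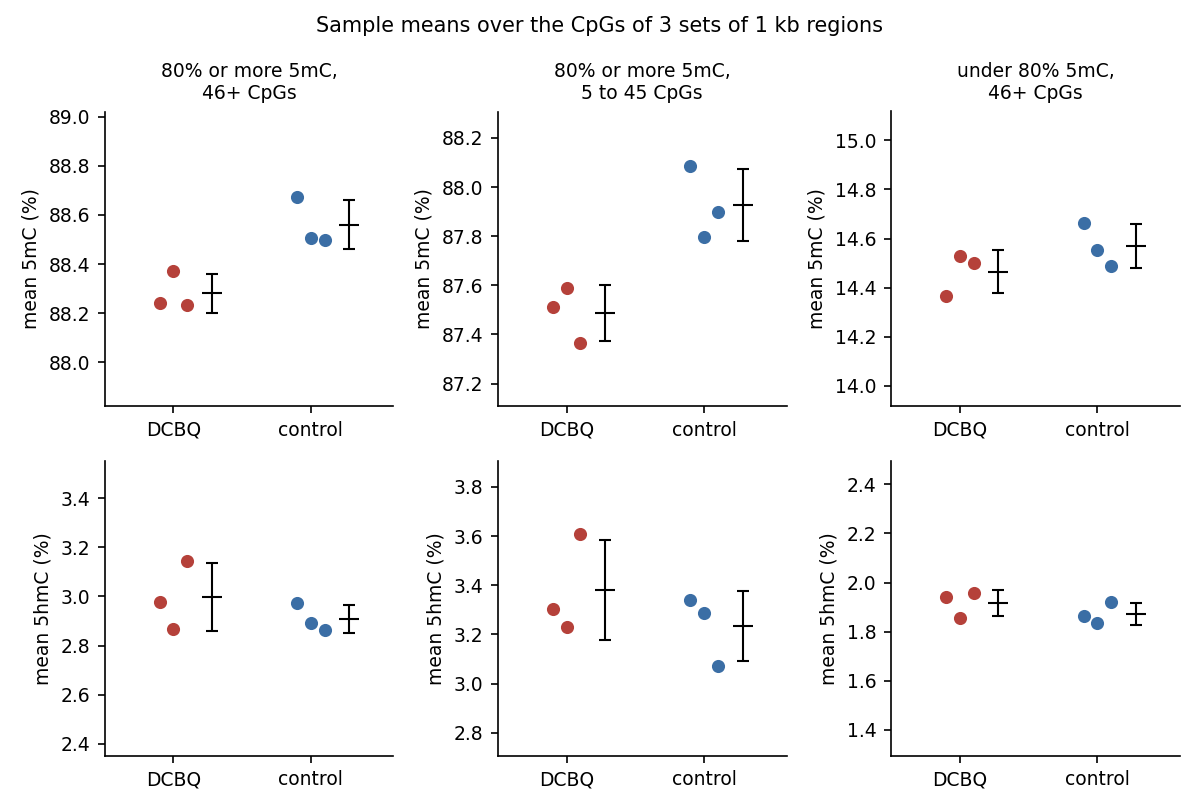
Mean 5mC (top row, y axis, %) and mean 5hmC (bottom row, y axis, %) over the CpGs of 3 sets of regions, given by column; points are the 3 samples of a condition, DCBQ in red and control in blue, and black bars the mean ± SD; each panel spans 1.2 points and none starts at 0. The DCBQ points lie below all control points for 5mC in both sets of 80% or more, and the groups overlap elsewhere.

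No single region changed past the threshold. Of the 1664 regions, limma fitted over 193283 regions with 5 or more CpGs called 0 at a Benjamini-Hochberg adjusted p of 0.05, against a background of 0% of all regions, and the smallest adjusted p was 0.728. At an unadjusted p under 0.05, 7 regions were lower after DCBQ (0.421%, against 4.55% of all regions) and 0 were higher (against 1.71%). That fit pulls each region's variance towards that of sparser regions, whose median SD between replicates was 1.96 points over all regions tested against 0.678 for these. Fitted by limma over the dense regions alone, 89 were lower (5.35%, against 5.02% of all dense regions) and 13 higher (0.781%, against 2.1%) at an unadjusted p under 0.05, with 0 called after adjustment. The share on the lower side was thus close to that of dense regions in general.

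Most of the regions read lower after DCBQ, by small differences. The difference was below 0 in 1121 regions (67.4%), against 60.1% of all regions tested, with a median of -0.283 points against -0.331 over all regions. In 178 regions (10.7%, against 8.21% of all regions) each DCBQ sample was below each control, and in 34 (2.04%, against 3.36%) each was above. A difference of 2 points or more was seen in 28 regions (1.68%), against 31.3% of all regions tested. These shares are not at equal precision, since the median SD between replicates was 0.678 points here and 1.96 over all regions tested. The regions with the most CpGs differed least: the median was -0.319 points with 46 to 55 CpGs and -0.0695 in the 51 regions with 100 or more.

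**Figure D3:**
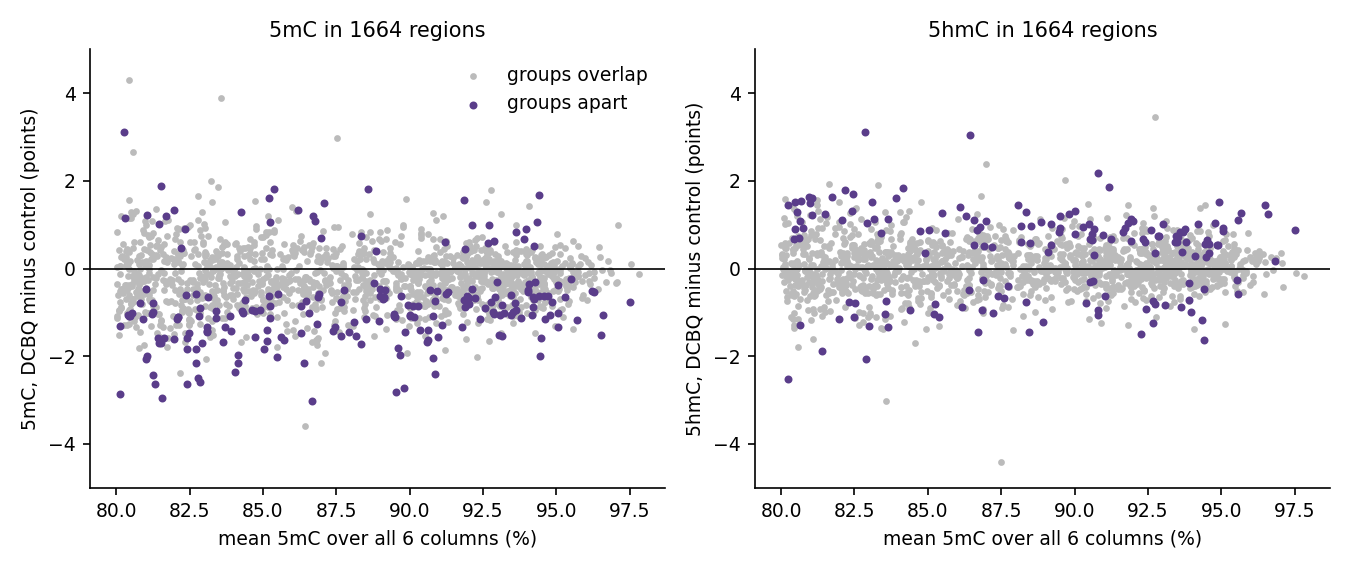
Difference between the mean of 3 DCBQ and 3 control samples (y axis, percentage points; left 5mC, right 5hmC) against the mean 5mC (x axis, %) of each of the 1664 regions; purple points are regions whose groups did not overlap. Most points lie within 2 points of 0, with 178 purple points below and 34 above 0 for 5mC, and 49 below and 110 above for 5hmC.

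The 6 regions of smallest p that read lower after DCBQ had adjusted p from 0.728 to 0.790 in limma and are described as values only. A region 39499 bases from HTR1D, a serotonin receptor gene (chromosome 1, 23257001 to 23258000, 50 CpGs), read 87.76%, 88.26% and 88.3% in DCBQ samples and 91.2%, 91.24% and 90.33% in controls. The groups did not overlap, and the difference was -2.81 points (SE 0.85). In SEC11A, a subunit of the signal peptidase (chromosome 15, 84672001 to 84673000), the values were 85.84%, 84.43% and 85.18% in DCBQ samples and 87.94%, 87.43% and 89.16% in controls, a difference of -3.03 points (SE 0.98). ARID3A, a DNA-binding regulator of B-cell genes (chromosome 19, 942001 to 943000), read 89.63%, 89.6% and 89.8% in DCBQ samples and 92.04%, 92.52% and 91.68% in controls. ISL2, a LIM homeobox factor of motor neurons (chromosome 15, 76340001 to 76341000), SPSB4, a substrate receptor of a ubiquitin ligase, and a region 12064 bases from BMS1, a ribosome assembly factor, differed by -2.63, -2.73 and -2.86 points. With the median of the CpGs SPSB4 was at -1.23 points. In all 6 the groups did not overlap, against 8.21% of all regions on the lower side, and the choice by smallest p favours this. For 3 of them 5hmC differed the other way without overlap, against 5.58% of all regions. It averaged 3.742% in DCBQ samples and 2.544% in controls near HTR1D, 3.974% in DCBQ samples and 2.727% in controls at SPSB4, and 4.621% in DCBQ samples and 3.309% in controls at ISL2. The labels do not say how far the tables of the marks share libraries. If they do, choosing regions on lower 5mC can favour a higher 5hmC. The 5.58% is a share over regions not chosen in this way, so nothing further is read from these 3 regions.

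On the higher side the adjusted p ran from 0.812 to 0.851. CLDN5, a claudin of endothelial tight junctions, had the largest positive difference, with 78.2%, 85% and 84.51% in DCBQ samples and 77.07%, 79.14% and 78.59% in controls (chromosome 22, 19523001 to 19524000). Its groups overlapped, since the first DCBQ sample lay among the controls, and the difference of 4.30 points was 6.49 without it. The region with the PEAR1 promoter printed above read 88.86%, 89.23% and 90.36% in DCBQ samples and 87.62%, 87.63% and 87.74% in controls, a difference of 1.82 points (SE 0.89) without overlap. With only the 44 of its 48 CpGs found in both tables the difference was 0.608 points, and with the median of the CpGs 0.667. The promoter window itself overlapped between groups, with 91.69%, 91.15% and 92.44% in DCBQ samples and 89.79%, 90.17% and 91.58% in controls. TUBB3, a neuronal tubulin, read 95.72%, 94.95% and 95.12% in DCBQ samples and 94.09%, 93.63% and 93.02% in controls, and its 5hmC was 2.035% in DCBQ samples and 3.662% in controls. LYRM4, of iron-sulfur cluster assembly, and WNK2, a kinase, differed by 1.82 and 1.57 points, both without overlap. With the median of the CpGs these were 3.17 and 0.65 points, and WNK2 was at 1.01 points without the third control. ABHD17A, a depalmitoylase gene with a pseudogene copy in this set, differed by 3.12 points, of which most came from the first DCBQ sample (85.58%, against 80.21% and 79.64% in the other DCBQ samples and 78.79%, 79.03% and 78.24% in controls). Without that sample it was 1.24 points, and with the median of the CpGs 8.72.

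**Figure D4:**
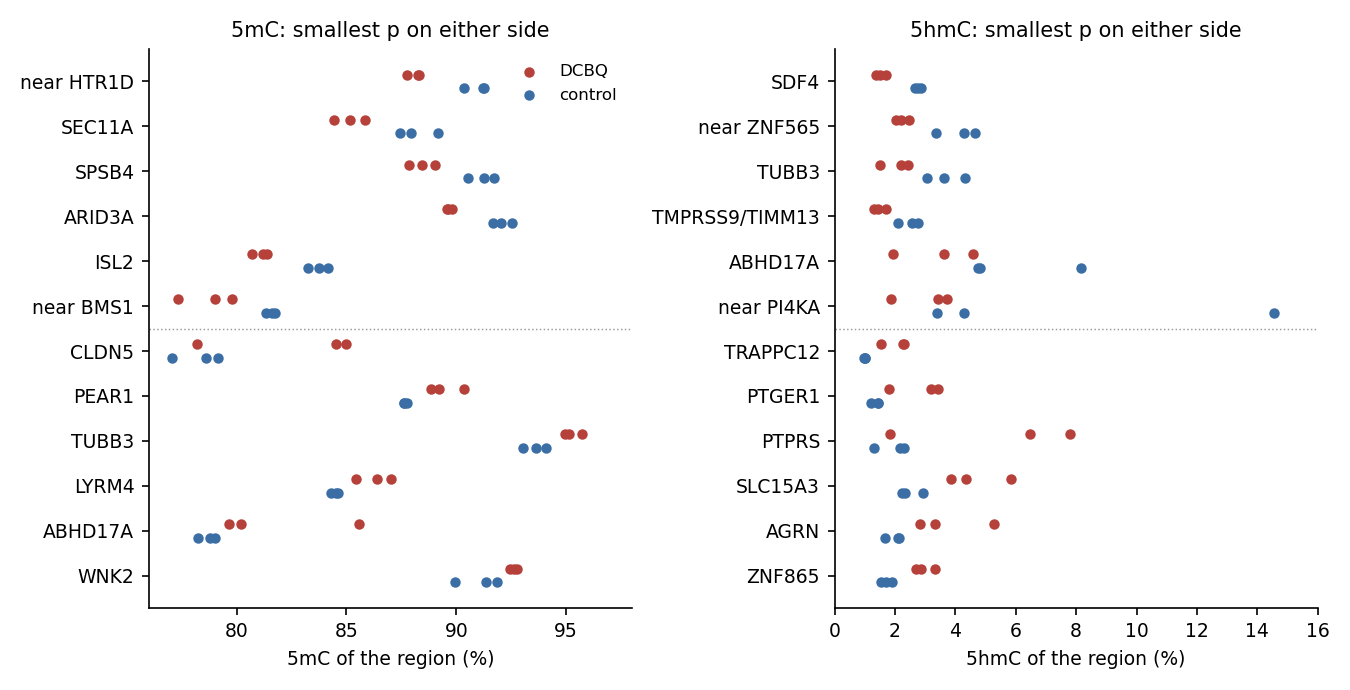
5mC (left, x axis, %) and 5hmC (right, x axis, %) of the regions with the smallest unadjusted p in each direction, 1 row per region with 3 DCBQ samples (red, upper) and 3 control samples (blue, lower); rows above the dotted line were lower after DCBQ and rows below it higher; neither axis covers the full range to 100%. The groups are apart in 11 of the 12 rows for 5mC and in 10 of 12 for 5hmC, and no row passed the adjusted threshold. The choice by smallest p favours groups that are apart. Over all regions tested, 8.21% were apart and lower and 3.36% apart and higher for 5mC, and 4.34% and 5.58% for 5hmC.

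The genes with the most such regions were chosen by number of regions and not by their difference. Their values are means over several regions, so the background given is that of all protein-coding genes with 3 or more tested regions, of which 71.7% read lower for 5mC and 58.1% higher for 5hmC. Over its 6 regions AGRN read 90.87%, 91.11% and 90.92% in DCBQ samples and 91.95%, 91.54% and 91.88% in controls, a difference of -0.823 points. Its groups did not overlap. Its 5hmC was 2.691%, 2.757% and 2.713% in DCBQ samples and 2.244%, 2.319% and 2.005% in controls, also without overlap. EPPK1, with the most regions, read 93.34% ± 0.01 in DCBQ samples and 93.44% ± 0.25 in controls (SD, n = 3 each), within the spread of the controls. PLXNB2 averaged 92.16% ± 0.13 in DCBQ samples and 93.09% ± 0.55 in controls, the widest difference of the 10 genes. All 10 were lower in DCBQ for 5mC and 7 did not overlap; for 5hmC, 9 were higher and 3 of these did not overlap. Of the 61 genes with 3 or more regions, 48 (78.7%) were lower for 5mC, 15 (24.6%) of them without overlap, against a background of 14.2% of 12261 genes, and 0 of the 13 higher ones were without overlap, against 1.98%. For 5hmC 8 genes (13.1%) were higher without overlap, against 6.33% of 12079 genes, and 0 lower, against 3.1%. Some of the 61 genes share the same regions, such as CERS1 with GDF1 and CHRNE with C17orf107, so they are not all separate. The 61 genes had a median of 211 CpGs in the regions averaged and the background genes 118. Regions of different 5mC level were not matched. For these reasons nothing particular to these genes is read from the shares.

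No gene list held a region called by limma, and the counts below stand beside 67.4% of all 1664 regions that read lower. No list was tested. Zinc finger genes had 33 regions lower and 11 higher, with a median of -0.323 points, close to -0.331 over all regions tested. Other homeobox genes had 17 lower and 13 higher (median -0.107). The genes hypermethylated in urothelial tumours had 9 lower and 1 higher (median -0.592), and SIM2, a developmental transcription factor, read 91.03% ± 0.67 in DCBQ samples and 92.06% ± 0.08 in controls (SD, n = 3 each). Channels had 12 lower and 5 higher (median -0.190), collagens 6 and 1, kinesins 5 and 2, mucins 3 and 0, germline genes 4 and 1, and the clustered protocadherins 4 and 0 (median -0.808). Imprinted genes had 2 lower and 1 higher (median -0.743), and the single regions of ADAMTSL2, ribosomal proteins and housekeeping genes were lower. Other lists were split or on the higher side. HOX genes had 1 lower and 1 higher (median 0.251) and cadherins outside the clusters 1 and 1 (median -0.0444). The genes listed for a link to 5mC had 1 lower and 2 higher (median 0.185). DNMT3A, which writes 5mC, read 87.84% ± 0.55 in DCBQ samples and 87.39% ± 0.67 in controls in its single region, within the spread.

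5hmC was low throughout. The choice of regions did not use 5hmC, but it limits 5hmC, since high 5mC at a CpG leaves little room for it. Over the 99869 CpGs in the 5hmC table the means were 2.976%, 2.869% and 3.143% in the DCBQ samples and 2.973%, 2.891% and 2.862% in the controls. The groups overlapped, and the third DCBQ sample was the highest. The means were 3.00% ± 0.14 for DCBQ and 2.91% ± 0.06 for controls (SD, n = 3 each), a difference of 0.087 points (SE 0.086) with an exact permutation p of 0.4. Without the third DCBQ sample it was 0.0136 points, without the second 0.151, and with the median of the CpGs 0.0373.

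Single 5hmC values repeated weakly, with correlations between samples of 0.197 to 0.233 over autosomal CpGs. Of the CpGs in both tables, 86.32% had levels summing to 1 or less in all samples. The measured 5hmC level itself differed between sets of regions. It was 0.354 points below that of the sparser regions of 80% or more 5mC, lower in 6 of 6 samples, with a two-sided exact sign-flip p of 0.031, unchanged by adjustment over 4 comparisons and the smallest that 6 samples allow. It was 1.06 points above that of the other dense regions, in 6 of 6 samples with the same exact p, yet 1.53 points below the dense regions of intermediate 5mC (20% to under 80%). Sizes moved with how CpGs were summarised or chosen. With the median of the CpGs the gap to the sparser regions was -0.604 and that to the other dense regions 0.35 points. With CpGs whose levels sum to 1 or less the gap to the sparser regions was -0.219 points, and with the heavily methylated limit at 85% the gap to the other dense regions was 0.628 points, each with an exact sign-flip p of 0.031. These 6 samples share a single cell line, and the sign-flip test cannot tell a 5hmC difference from an error that they share. With the sparser regions weighted to the same 5mC levels, the gap was 0.317 points (3.006% in the dense and 3.323% in the sparser regions, exact sign-flip p of 0.031).

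The gap was not the same along the range of 5mC. At 84% to 86% 5mC the dense and the sparser regions both averaged 3.56% 5hmC, whereas at 92% to 94% they averaged 2.31% and 2.95%, and at 94% to 96% 2.01% and 2.85%. Among the 1664 regions 5hmC was lower where 5mC was higher, with a Spearman rho of -0.757 across regions that share the same libraries. It averaged 3.779% at 80% to 85% 5mC and 1.887% at 95% or more. The room that 5mC leaves for 5hmC shrinks along this range, so the fall is not independent of the 5mC level. The precision of single CpGs moved with density: for CpGs of 85% to 95% 5mC the median SD between samples of a condition was 4.38 points in the dense regions, and 5.875, 5.248 and 5.007 in sparser regions with 5 to 9, 10 to 19 and 20 to 45 CpGs. Over all CpGs of these sets, 5hmC means were 2.952% in the dense and 3.282%, 3.383% and 3.222% in the sparser regions. For CpGs of 85% to 95% 5mC present in both tables they were 3.746% in the dense and 4.462%, 4.142% and 4.075% in the sparser regions. Any level below 0 was set to 0 when the data were read, so whether the 5hmC table held such values is not given. Of the 5hmC values, 49.69% were 0 in the dense regions and 54.15%, 51.6% and 50.65% in the sparser ones. The part of precision in the gap was not tested.

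**Figure D5:**
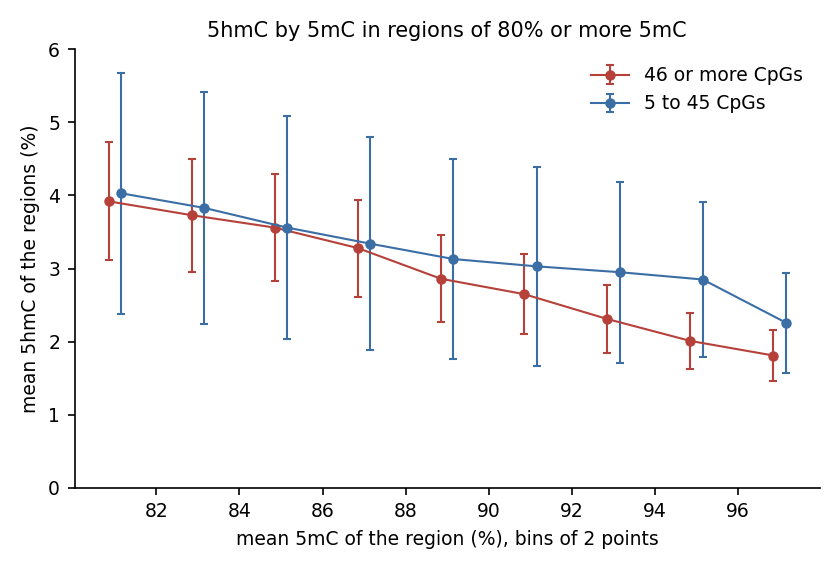
Mean 5hmC (y axis, %) of regions with 80% or more 5mC, in bins of 2 points of mean 5mC (x axis, %), for regions with 46 or more CpGs (red) and with 5 to 45 CpGs (blue); error bars are the SD across regions, not samples. Both lines slope down with 5mC, coincide at 3.56% between 84% and 86%, and part above 88%, where the dense regions are lower.

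No region changed in 5hmC past the threshold either. Limma over 186427 regions called 0 of the 1664 (background 0%), with a smallest adjusted p of 0.975. At an unadjusted p under 0.05, 0 were lower (against 2.07% of all regions) and 1 was higher (0.0601%, against 2.76%). Fitted over the dense regions alone, with 46 or more CpGs in the 5hmC table, 14 of 1577 were lower (0.888%, against 1.79%) and 39 higher (2.47%, against 3.24%) by limma's unadjusted p. Each DCBQ sample was below each control in 49 regions (2.94%, against 4.34% of all regions) and above in 110 (6.61%, against 5.58%). The difference was above 0 in 921 regions and below 0 in 743. Without the third DCBQ sample, 51.62% were below 0, against 44.65% with it.

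Of the regions with the smallest p for 5hmC, each with an adjusted p of 0.975 in limma, several were near full methylation. TRAPPC12, of vesicle tethering (chromosome 2, 3388001 to 3389000, 69 CpGs), read 2.309%, 1.54% and 2.252% 5hmC in DCBQ samples and 0.959%, 1.006% and 1.015% in controls. PTGER1, a prostaglandin E receptor (chromosome 19, 14473001 to 14474000, 96 CpGs), read 1.792%, 3.196% and 3.413% in DCBQ samples and 1.421%, 1.197% and 1.436% in controls. In both the groups did not overlap, and 5mC was lower in DCBQ samples: 94.26%, against 95.31% in controls, at TRAPPC12, and 95.75%, against 97.27% in controls, at PTGER1. SLC15A3, a peptide transporter, AGRN, and ZNF865 were higher by 2.19, 1.86 and 1.25 points without overlap, and PTPRS, a receptor phosphatase, by 3.45 points with overlap. AGRN was at 1.13 points without the first DCBQ sample, and ZNF865 at 0.417 with CpGs whose levels sum to 1 or less. PTPRS was at 5.21 points without the second and 2.23 without the third DCBQ sample, and at 1.29 with the median. On the lower side, SDF4, a calcium-binding protein of the Golgi (chromosome 1, 1217001 to 1218000), read 1.718%, 1.489% and 1.386% in DCBQ samples and 2.845%, 2.674% and 2.772% in controls. TUBB3, ABHD17A, a region shared by TMPRSS9, a protease, and TIMM13, of mitochondrial import, and a region 32073 bases from ZNF565 were lower by 1.63, 2.53, 1.0 and 1.87 points without overlap. With the median of the CpGs TUBB3 was at -0.340 and the ZNF565 region at -0.363 points. ABHD17A was at -1.40 points without the first control, which read 8.17%, against 4.752% and 4.826% in the other controls. The region 36691 bases from PI4KA, a lipid kinase, which covers the pseudogene ABHD17AP4, was lower by 4.41 points. Its DCBQ samples read 1.876% to 3.719%, and the controls 3.402%, 4.29% and, in a single sample, 14.56%. Without that sample the difference was -0.843 points, with the median of the CpGs -1.71, and with CpGs whose levels sum to 1 or less -2.43.

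The highest 5hmC over all samples was 6.584%, in a region of TNXB, a tenascin of connective tissue, where the means were 5.08% in DCBQ samples and 8.09% in controls with overlapping groups. TNXB has a partial copy beside it in the genome, so this value is uncertain. LACTBL1, CLDN5, TRIM54, a ubiquitin ligase of muscle, and PTPRN2, of secretory granules, followed with 6.313% to 5.934%, and regions outside protein-coding genes with 5.917% to 5.842%. These lay 12064 bases from BMS1, 54084 bases from ADAM32, over the pseudogene ADAM5, and 1091620 bases from STIM2, over the uncharacterised gene LOC105374557. All 8 had a mean 5mC under 84%.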

How the data were processed

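RRBS and oxidative RRBS were made from SV-HUC-1 cells with a QIAamp kit, the Ovation RRBS Methyl-Seq system and TrueMethyl oxidation, per the labels' protocols. The submitters' processing notes list cutadapt, Trim Galore and BSMAP 2.90 on hg38. The authors deposited 5mC and 5hmC as a fraction per CpG, strands merged, with at least 5 reads per the file names. The step that combined the library types is not stated in the labels or headers. No column belonged to another sample. Column names fit both library types, so columns were mapped to conditions only. The tables hold no depth, so no interval from reads is given.

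Levels were averaged per 1 kb region (positions 1 to 1000 and so on) and are printed as percent. Sample means over CpGs were compared by exact permutation (20 relabellings) and exact sign-flip tests (64 patterns). Region means were tested with limma 3.58.1 (R 4.3.3; lmFit and eBayes with a trend, untransformed level, regions with 5 or more CpGs, Benjamini-Hochberg), and the procedure was tested on simulated data. Other numbers used Python 3.11.15, numpy 2.4.6, pandas 2.3.3 and matplotlib 3.10.9. Genes came from a RefSeq table of GRCh38.p14, and starts and strand, for 15100 of 19122 protein-coding genes, from RefSeq promoters.

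The regions, gene lists and tests were chosen with earlier results of these data known. The text names, per mark, the 6 regions of smallest p on either side, the 8 with the most CpGs, highest 5mC and highest 5hmC, the 10 genes with most regions, and up to 3 genes per list. A coverage minimum could not be varied.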

Additional observations from a re-analysis of the deposited data

How the results depend on the processing

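With 3 samples against 3, the exact permutation test of sample means cannot pass 0.05, and depth per CpG is unknown, so the counting error behind a level cannot be given. The mean 5mC difference kept its direction in 16 alternatives, between -0.323 and -0.153 points, and was -0.279 points without the regions of the chromosome 19 array described below, an alternative added after seeing the data. Against the other dense regions, the difference of the 5mC effects, -0.174 points, was -0.0448 with the median of the CpGs (exact p of 0.7). The mean 5hmC difference also kept its direction, between 0.0136 and 0.151 points. The difference of the 5hmC effects against the sparser regions, -0.0605 points, became 0.00158 with only CpGs whose levels sum to 1 or less, and was -0.00312 without the third control, -0.0193 without the third DCBQ sample and -0.106 with the sparser regions weighted to the same 5mC levels. Against the other dense regions, 0.0430 points, it ranged from -0.0117 to 0.0809 when a sample was left out, with the lowest value without the third DCBQ sample and -0.00479 without the third control; the cause was not tested. The 5hmC level against sparser regions ranged from -0.383 to -0.332 points and that against the other dense regions from 1.03 to 1.08 points when a sample was left out, with an exact p of 0.0625, the smallest that 5 samples allow. The first was -0.604 points with the median of the CpGs and -0.219 with CpGs whose levels sum to 1 or less, and the second 0.35 with the median and 0.628 with a limit of 85% 5mC.

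The number of regions called by limma stayed 0 for both marks in all 20 alternatives each. At an unadjusted p under 0.05 it moved from 7 to 102 for 5mC and from 1 to 53 for 5hmC when the fit was restricted to dense regions, which are less variable. Samples with the same number did not vary together (correlations of -0.037 to 0.008), so the numbers were not taken to pair samples. With a replicate block the 5mC difference was -0.278 points (exact sign-flip p of 0.25, the smallest possible) and the 5hmC difference 0.0873 points (p of 0.75 by the same exact test), with 0 regions called. Of 359 alternative values for the 24 named differences, 353 kept their direction; the 5hmC differences of SDF4, TMPRSS9/TIMM13, TRAPPC12, PTGER1, AGRN and ZNF865 were 0 with the median of the CpGs in place of the mean.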

Other observations

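Outside protein-coding genes, a group of 26 heavily methylated dense regions lay within 40 kb on chromosome 19 (36268001 to 36308000), where all 26 dense regions belonged to the set and 25 of them overlapped the long noncoding RNA gene CYKILR. Their 5mC lay between 80.32% and 86.1%. It averaged 83.66% ± 0.17 in DCBQ samples and 83.88% ± 0.14 in controls, and 5hmC 2.84% ± 0.12 in DCBQ samples and 2.78% ± 0.15 in controls (SD, n = 3 each), both with overlapping groups. At 80% to 85% 5mC, 19 of these regions averaged 2.703% 5hmC and the 516 such regions elsewhere 3.819%. The group was picked out after its values were seen, and how reads were placed there was not analysed here.

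The 75 regions with a protein-coding start read 88%, 88% and 87.94% 5mC in DCBQ samples and 88.35%, 88.22% and 88.29% in controls. Their 5hmC was 3.158%, 3.14% and 3.264% in DCBQ samples and 3.024%, 2.89% and 2.878% in controls. The groups did not overlap for either mark. 5hmC was higher after DCBQ in 50 of the 75, against 55.3% of the 1664 regions and 52.9% of all regions tested. Among the 1664 regions as a whole the 5hmC groups overlapped, and the difference between the 2 sets was not tested. Other classes of these regions, by gene, chromosome position or neighbours, were also compared, and in none of those were the 5hmC groups apart.

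Hairpins of 9 miRNAs lay in heavily methylated dense regions, of 78 in any dense region. The region with MIR200B, of a family known to maintain epithelial identity, had 86.18% 5mC over all samples and the one with MIR6776 95.09%.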
